A study of Rattus norvegicus with 14 samples.

Results

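The mitotic spindle and kinetochore genes are a list of 45 genes whose products condense and hold chromosomes, build the spindle, check its attachments, start anaphase and divide the cell. They were chosen by name, and a gene was measured where the array held a probe set for it alone. By that rule 39 of the 45 were measured, of 14217 genes in all. Anln, Cdc25c, Kif4a, Ndc80, Nek2 and Tpx2 had no such probe set and have no value here. Each gene is given by its brightest probe set, as log2(signal + 1), written below as the log2 signal.

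In mitosis, kinetochores assemble on centromeres and attach to spindle microtubules, kinesin motors move chromosomes and microtubules, and the spindle checkpoint delays anaphase until attachment is complete. Cyclin B with CDK1 drives entry into mitosis, and the anaphase-promoting complex with its activator CDC20 ends it by marking securin and cyclin B for destruction. Most of these genes are transcribed in G2 and M phase and are nearly silent in cells that do not divide, so that their RNA in tissue is commonly read as a sign of cycling cells.

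The series holds 11 malignant peritoneal mesotheliomas and 3 control peritoneal tissues, each from a different male Wistar rat and each on 1 Affymetrix array. The tumors had followed 1 injection into the peritoneal cavity of amosite asbestos (3 tumors) or of a multiwalled carbon nanotube, MWCNT, of which MWCNT B gave 2, MWCNT C gave 3 and MWCNT D gave 3 of the tumors. Histology put 5 tumors in the sarcomatoid type (MWCNT B replicate 2, MWCNT C replicates 1 and 2, MWCNT D replicate 2, amosite replicate 3), 3 in the biphasic type (the replicates numbered 3 of MWCNT C and D, and amosite replicate 2) and 3 in the epithelioid type (replicate 1 of MWCNT B, of amosite and of MWCNT D). The control rats are sham-treated by the labels and untreated by the methods, and ages are not given here. Tumors were picked by inducer and by how much frozen tissue was at hand, and tumor types are spread unevenly over the inducers, with the sarcomatoid type under each. The arrays measured bulk tissue, so that fewer dividing cells and less RNA per dividing cell cannot be told apart.

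The control tissue was rich in skeletal muscle. The mean log2 signal of 31 muscle genes was between 14.07 and 14.18 in the controls and between 5.32 and 5.90 in the tumors, and that of 11 mesothelial genes was between 3.99 and 5.78 in the controls and between 7.07 and 11.84 in the tumors. Their part in the differences between tumors and controls was not tested. The Actb 3′ minus 5′ log2 difference was between -1.24 and -0.65 in the controls and between 0.296 and 0.598 in the tumors, while that of Gapdh was between 0.103 and 0.163 in the controls and overlapped with the tumors (-0.026 to 0.179). Median signals per array lay between 96.89 and 104.3 in the controls and between 128.8 and 154.4 in the tumors, a difference of 0.447 between the mean log2 medians. Among the tumors, MWCNT D replicate 2 and amosite replicate 1 carried RNA of pancreas, with mean log2 signals of 13.81 and 14.59 over 13 pancreas genes against at most 5.98 in the other 9. MWCNT D replicate 2 also had the highest T cell signal (10.93 over 9 genes, others at most 7.03) and the highest signal of B and plasma cells (12.18 over 6 genes, others at most 7.01), and the lowest mesothelial signal (7.07).

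The promoters of mitotic genes are known for the cell cycle genes homology region (CHR), with the letters TTTGAA or, as a variant, TTTAAA, bound by the MuvB complex, and for CCAAT boxes, bound by NF-Y. RefSeq promoters of rat assembly GRCr8, from 250 bases before to 50 bases after each annotated gene start, were in the table for 39 of the 45 genes, 34 of them measured. Ccna2, Aurkb, Tpx2, Racgap1, Ube2c and Incenp had no entry. The stretches below are shown because they belong to the cyclin B and CDK1 pair, to the proliferation markers Mki67 and Top2a, to the kinase Plk1, and to the genes with the highest and the lowest difference between tumors and controls, Cenpe and Espl1. That ranking sets no floor for dim signals. Melk is shown as a gene with neither motif. They run 5′ to 3′ on the strand of the gene, and capitals mark the CHR, its variant and the CCAAT box on either strand, so that a match on the other strand reads TTCAAA for the CHR and, for the CCAAT box, ATTGG.
Ccnb1 (chr2:33655176-33655475, minus strand): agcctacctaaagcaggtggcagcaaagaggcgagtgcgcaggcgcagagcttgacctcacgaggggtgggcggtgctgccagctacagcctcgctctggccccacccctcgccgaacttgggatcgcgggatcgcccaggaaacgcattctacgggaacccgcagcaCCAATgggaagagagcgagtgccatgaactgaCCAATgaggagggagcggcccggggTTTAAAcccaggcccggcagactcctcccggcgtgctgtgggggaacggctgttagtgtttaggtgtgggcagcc
Cdk1 (chr20:19265043-19265342, plus strand): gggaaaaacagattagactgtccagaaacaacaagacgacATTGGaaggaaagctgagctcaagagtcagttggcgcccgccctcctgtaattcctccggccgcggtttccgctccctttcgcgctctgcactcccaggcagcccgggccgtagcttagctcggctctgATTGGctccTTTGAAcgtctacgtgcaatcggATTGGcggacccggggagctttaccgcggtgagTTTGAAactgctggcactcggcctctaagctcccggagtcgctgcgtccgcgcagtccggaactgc
Mki67 (chr1:199952544-199952843, minus strand): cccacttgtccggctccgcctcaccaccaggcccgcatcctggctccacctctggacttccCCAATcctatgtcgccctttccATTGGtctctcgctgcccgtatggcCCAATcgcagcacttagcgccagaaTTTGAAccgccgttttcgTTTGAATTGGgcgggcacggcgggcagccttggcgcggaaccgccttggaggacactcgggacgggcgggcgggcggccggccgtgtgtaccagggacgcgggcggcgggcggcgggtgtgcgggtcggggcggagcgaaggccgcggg
Top2a (chr10:84473044-84473343, minus strand): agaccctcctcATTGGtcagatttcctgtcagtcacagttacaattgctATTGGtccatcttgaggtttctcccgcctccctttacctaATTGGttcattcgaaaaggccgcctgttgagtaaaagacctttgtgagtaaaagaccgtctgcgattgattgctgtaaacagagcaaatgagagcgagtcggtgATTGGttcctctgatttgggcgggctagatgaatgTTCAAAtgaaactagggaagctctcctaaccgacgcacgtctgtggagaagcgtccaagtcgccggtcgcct
Plk1 (chr1:186147408-186147707, plus strand): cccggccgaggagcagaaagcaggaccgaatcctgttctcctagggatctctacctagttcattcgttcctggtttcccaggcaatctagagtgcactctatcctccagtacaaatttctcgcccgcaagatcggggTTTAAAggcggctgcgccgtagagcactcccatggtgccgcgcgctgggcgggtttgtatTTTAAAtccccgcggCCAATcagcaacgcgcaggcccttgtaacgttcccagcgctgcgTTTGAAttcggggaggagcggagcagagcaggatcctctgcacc
Cenpe (chr2:226310807-226311106, plus strand): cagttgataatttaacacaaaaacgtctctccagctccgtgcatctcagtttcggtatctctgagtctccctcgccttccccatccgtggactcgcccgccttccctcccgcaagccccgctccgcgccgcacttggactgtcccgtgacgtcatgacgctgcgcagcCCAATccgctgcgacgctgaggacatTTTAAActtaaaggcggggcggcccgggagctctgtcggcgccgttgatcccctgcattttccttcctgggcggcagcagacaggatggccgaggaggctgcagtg
Espl1 (chr7:135302466-135302765, plus strand): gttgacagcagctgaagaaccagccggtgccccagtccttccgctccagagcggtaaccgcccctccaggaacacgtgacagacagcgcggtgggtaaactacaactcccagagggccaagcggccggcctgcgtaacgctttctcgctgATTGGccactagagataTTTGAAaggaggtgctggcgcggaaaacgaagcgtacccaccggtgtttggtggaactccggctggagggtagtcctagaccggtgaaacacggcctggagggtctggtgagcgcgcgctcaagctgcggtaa
Melk (chr5:63335901-63336200, plus strand): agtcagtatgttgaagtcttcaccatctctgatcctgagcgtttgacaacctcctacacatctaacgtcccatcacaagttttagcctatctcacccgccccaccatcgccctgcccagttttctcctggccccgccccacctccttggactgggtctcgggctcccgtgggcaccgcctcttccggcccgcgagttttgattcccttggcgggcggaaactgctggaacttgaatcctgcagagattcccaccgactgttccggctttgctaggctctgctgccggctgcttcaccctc

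TTTGAA was found on either strand in the promoters of 27 of the 39 genes (69.2%) and TTTAAA in 13 (33.3%), and 35 (89.7%) held at least one of them. Among the 27457 genes of the whole table these shares were 19.4%, 14.6% and 29.6%, and among the 11733 genes that the array measured they were 13.3%, 10% and 21.1%. CCAAT was found in 29 of the 39 genes (74.4%) against 39.6% of the table and 65.4% of 26 chromosomal replication genes, and 26 (66.7%) held both a CHR motif and CCAAT against 12.1%. The E2F motif, searched as TTTGGCGC and also in the form TTTCGCGC, was found in 1 of the 39 genes, Cdk1, against 0.892% of the table. Among the 26 replication genes an E2F motif was found in 14 (53.8%) and a CHR motif in 4 (15.4%), and among 57 other mitosis genes with a promoter in the table, 31 (54.4%) held a CHR motif and 31 (54.4%) CCAAT. In the Mki67 promoter 1 CHR and 1 CCAAT box on the other strand share bases, and each was counted.

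In the Cdk1 promoter TTTGAA stood 72 and 16 bases before the start, in that of Ccnb1 TTTAAA stood 25 bases before it with CCAAT at 82 and 50, and in that of Cenpe TTTAAA stood at 56 with CCAAT at 82. Of the 33 TTTGAA matches in member promoters, 28 lay between 100 bases before and 50 bases after the start (84.8%), where 41.4% of the 7118 matches of all promoters lay. Both strands were searched, and these are letter matches in the sequence, not measured binding sites. Cdca3, Nek2 and Spc24 held CCAAT without a CHR motif, and Kif2c, which has 2 promoters in the table, held TTTAAA in 1 of them.

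**Figure D1:**
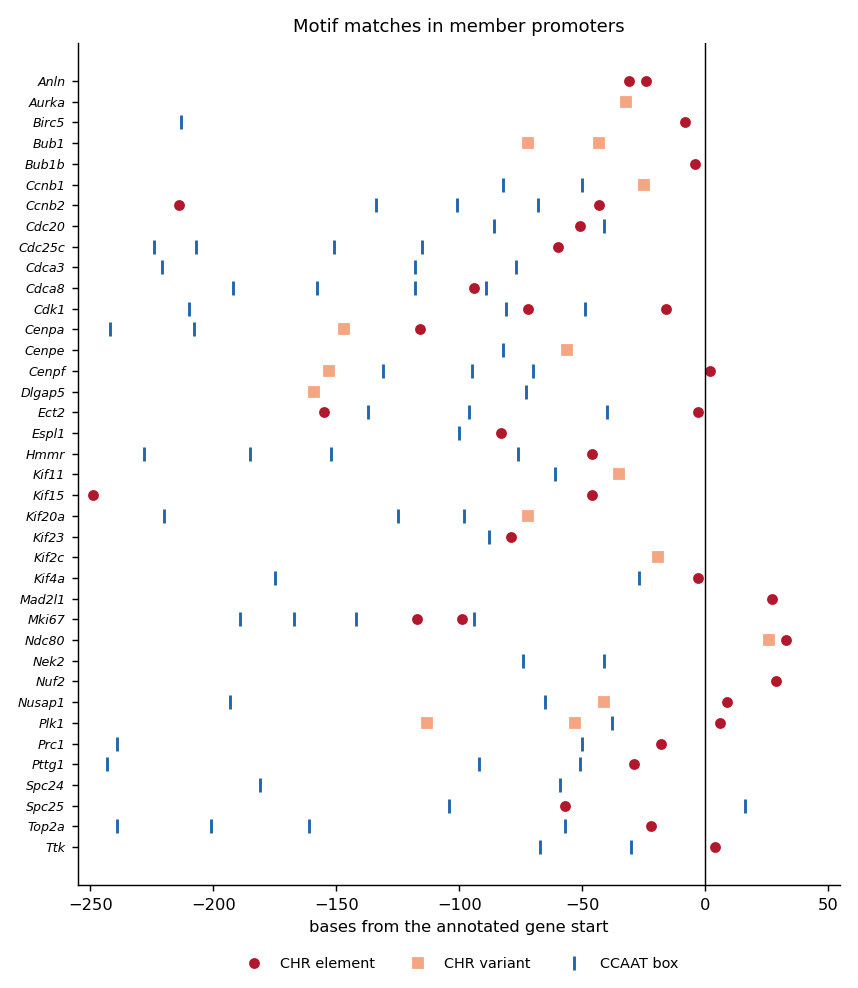
Position of CHR elements (TTTGAA, red circles), CHR variants (TTTAAA, light squares) and CCAAT boxes (blue ticks) in the promoters of member genes, in bases from the annotated gene start (line at 0), for the genes with a match. Of the 33 CHR elements, 28 lie from 100 bases before to 50 bases after the start.

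All 39 measured genes were higher in the 11 tumors than in the 3 controls by limma (adjusted p below 0.05 over all 31042 probe sets and a fold above 2), where 24.5% of all probe sets were called higher (7618 higher and 3228 lower). With the arrays centred on their medians 38 of the 39 genes were called higher, against 15.5% of all probe sets (4801 higher and 5500 lower). The log2 differences of the 39 ranged from 1.37 to 6.22 with a median of 4.36, and the median over all 14217 genes was 0.44. The mean log2 signal of the 39 genes, called the module mean here, was 4.91 ± 0.121 (SD, n = 3) in controls and 9.16 ± 0.762 (SD, n = 11) in tumors. It lay between 7.56 and 10.52 in the tumors and between 4.78 and 5.03 in the controls. For 38 genes every tumor lay above every control, as for 32.4% of all genes.

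**Figure D2:**
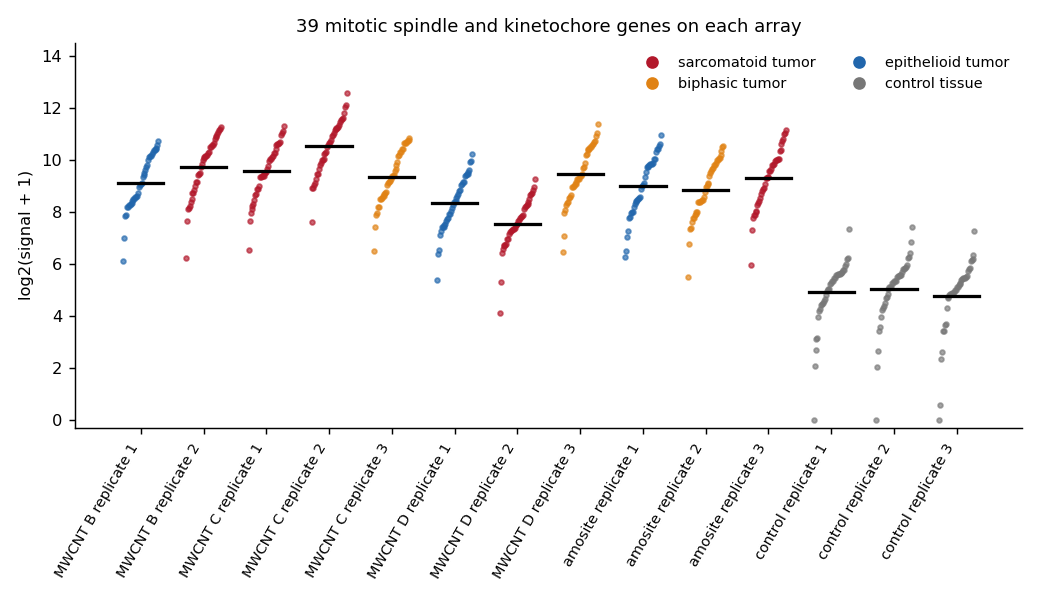
Log2(signal + 1) of the 39 measured genes (points, sorted within an array) and their mean (black bar) on each of the 14 arrays, coloured by tumor type. The 11 tumor means lie between 7.56 and 10.52 and the 3 control means between 4.78 and 5.03.

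Kinetochore and centromere genes rose by a median log2 difference of 4.09, all 6 of 6. Cenpe, the kinesin-like motor of the kinetochore, had the highest difference of all. Its log2 signal was 0.03, 2.66 and 0.02 in the controls and ranged from 5.32 over a median of 7.09 to 9.04 in the tumors. The log2 difference was 6.22 ± 0.634 (SE, limma adjusted p = 2.06e-06). Cenpa, the histone H3 variant that marks the centromere, was at 2.09, 0.02 and 0.60 in the controls and from 4.11 over 6.22 to 7.62 in the tumors, a log2 difference of 5.17 ± 0.554 (SE, limma adjusted p = 3.3e-06). For both genes the controls sat at the bottom of the scale, and with signals below a log2 of 5 raised to 5 the log2 differences were 2.12 and 1.15. Mki67 and Espl1, with every signal above 5, kept differences of 5.01 and 1.37. With the floor Cenpe was thus no longer the highest, and Cenpa lay below Espl1. Cenpf, a large kinetochore protein, differed by 4.05, and Spc24, Spc25 and Nuf2, subunits of the NDC80 complex that holds microtubules, by 4.12, 4.04 and 3.75.

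The 4 spindle checkpoint genes were all called higher. Ttk, the checkpoint kinase also named MPS1, was at 3.18, 2.04 and 3.43 in the controls and from 6.57 over 8.46 to 10.14 in the tumors. Its log2 difference was 5.53 ± 0.611 (SE, limma adjusted p = 4.45e-06), or 3.41 with the floor at 5. Bub1b, the checkpoint protein BUBR1, differed by 4.16 and Mad2l1, which holds CDC20 inactive, by 3.55. Bub1, the checkpoint kinase at the kinetochore, was at 7.36, 7.43 and 7.29 in the controls and differed by 2.61.

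The 5 kinesins rose by log2 differences between 4.24 and 5.18. Kif15, which helps to hold the spindle poles apart, was at 2.69, 3.96 and 2.34 in the controls and from 7.38 over 8.22 to 9.46 in the tumors (5.18 ± 0.412, SE, limma adjusted p = 1.87e-07, and 3.17 with the floor). Kif20a, the motor of the central spindle, was at 5.05, 4.22 and 4.88 in the controls and from 7.90 over 9.87 to 11.33 in the tumors (5.15 ± 0.5, SE, limma adjusted p = 1.3e-06). Kif2c, which takes microtubules apart at their ends, differed by 4.80, Kif11, the motor that separates spindle poles, by 4.36, and Kif23, a partner of Racgap1 in the central spindle, by 4.24.

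Among spindle assembly and microtubule binding genes, Nusap1 differed by 4.28, Prc1, the bundler of antiparallel microtubules, by 3.94, Dlgap5 by 3.82 and Hmmr by 2.88. All 4 were called higher.

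CDK1 and its 3 measured cyclins were all called higher. Cdk1, the kinase of mitotic entry, was at 5.67, 5.97 and 5.25 in the controls and from 8.68 over 10.71 to 11.79 in the tumors, a log2 difference of 4.99 ± 0.449 (SE, limma adjusted p = 6.41e-07), or 31.8-fold. Ccnb1, cyclin B1, was at 5.03, 5.34 and 4.72 in the controls and from 8.32 over 9.82 to 11.19 in the tumors, a log2 difference of 4.74 ± 0.42 (SE, limma adjusted p = 5.51e-07). Ccna2, cyclin A2, differed by 4.88 and Ccnb2, cyclin B2, by 4.23. The lowest tumor exceeded the highest control by more than 2 log2 units for each of these 4 genes.

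Of the mitotic kinases, Plk1 was at 3.96, 3.59 and 3.65 in the controls and from 7.36 over 8.62 to 9.87 in the tumors (4.93 ± 0.417, SE, limma adjusted p = 3.48e-07). Melk differed by 4.04, and Aurka, the kinase of centrosomes and spindle poles, by 2.68. The 4 subunits of the chromosomal passenger complex, which corrects wrong attachments, were all called higher, with log2 differences between 2.81 and 4.93. Aurkb, its kinase, was at 4.65, 5.14 and 4.89 in the controls and from 8.85 over 9.83 to 10.93 in the tumors (4.93 ± 0.371, SE, limma adjusted p = 1.05e-07). Birc5, survivin, was at 4.44, 4.75 and 2.62 in the controls and from 7.27 over 8.60 to 10.04 in the tumors (4.73 ± 0.51, SE, limma adjusted p = 3.55e-06). Cdca8, borealin, differed by 2.85 and Incenp, the scaffold, by 2.81.

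Genes of anaphase onset and of the ubiquitin ligase were called higher in 5 of 5. Pttg1, securin, differed by 4.79, Cdca3 by 4.70, Ube2c, the ubiquitin-conjugating enzyme of the anaphase-promoting complex, by 4.52, and Cdc20 by 3.97. Cdc20 had 5 probe sets, and 1 of them, not the brightest, differed by -0.01 (limma adjusted p = 0.977). Espl1, separase, the protease that cuts cohesin, had the lowest difference of the list where no floor was set for dim signals. It was at 6.22, 6.86 and 6.36 in the controls and from 6.72 over 7.96 to 8.90 in the tumors, so that the groups overlapped, and differed by 1.37 ± 0.349 (SE, limma adjusted p = 0.00409). After median centring of the arrays Espl1 differed by 0.93, below the fold threshold. In cytokinesis, Ect2, the exchange factor that activates RhoA, differed by 4.71 and Racgap1 by 4.52.

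Mki67, the Ki-67 antigen that coats mitotic chromosomes, was at 5.60, 5.81 and 5.53 in the controls and from 8.97 over 10.83 to 12.58 in the tumors, a log2 difference of 5.01 ± 0.51 (SE, limma adjusted p = 2.04e-06). Top2a, the topoisomerase that untangles chromosomes, was at 6.18, 6.22 and 6.15 in the controls and from 9.28 over 10.94 to 12.03 in the tumors, a log2 difference of 4.63 ± 0.395 (SE, limma adjusted p = 3.81e-07). Two-sided exact permutation tests of 11 tumors against 3 controls gave p = 0.0055, the smallest that this design allows, for 38 of the 39 genes, and p = 0.011 for Espl1.

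**Figure D3:**
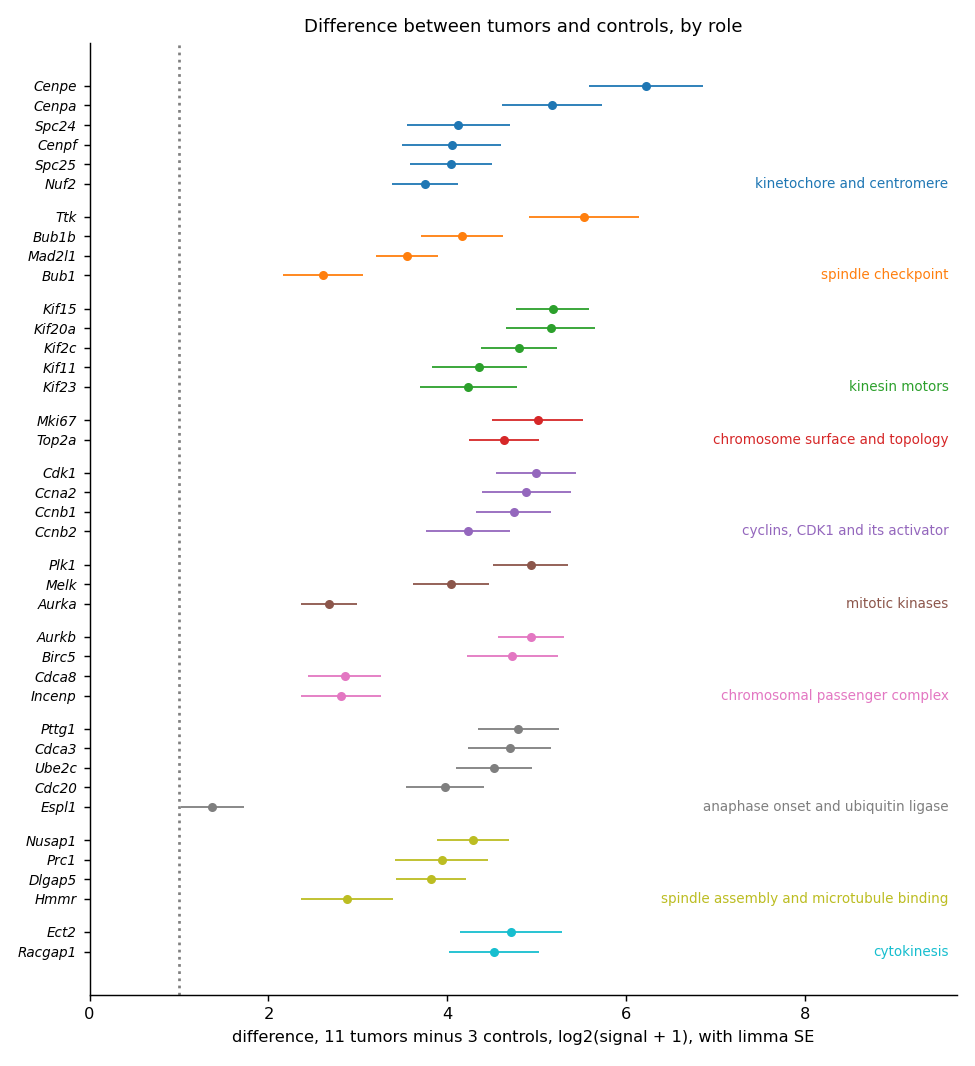
Log2 difference of the 11 tumors minus the 3 controls for each measured gene with its limma SE, grouped and coloured by role. The dotted line marks a log2 difference of 1, a fold of 2. With no floor for dim signals, the differences run from 1.37 for Espl1 to 6.22 for Cenpe.

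Against the same 3 controls, all 39 genes were called higher in MWCNT B tumors (background 20.8% of probe sets), in MWCNT C tumors (background 21.9%) and in amosite tumors (background 22.3%), and 38 in MWCNT D tumors (background 22.4%). By tumor type all 39 were called higher in sarcomatoid tumors (background 23.3%) and in biphasic tumors (background 24.0%), and 38 in epithelioid tumors (background 24.6%). The gene not called was Espl1 in both cases, with log2 differences of 0.88 (limma adjusted p = 0.0903) and 1.16 (limma adjusted p = 0.0533). The median log2 difference of the 39 genes was 4.99 under MWCNT C, 4.76 under MWCNT B, 4.31 under amosite and 3.59 under MWCNT D, and 4.67, 4.54 and 4.07 in sarcomatoid, biphasic and epithelioid tumors. All these comparisons share the controls. With the floor at a log2 signal of 5, Cenpa was also not called under amosite, under MWCNT B or D, or in any tumor type, and Cenpe in MWCNT D and epithelioid tumors.

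The tumors differed widely among themselves. The module mean was highest in MWCNT C replicate 2 (sarcomatoid, 10.52), followed by MWCNT B replicate 2 (sarcomatoid, 9.72), MWCNT C replicate 1 (sarcomatoid, 9.56), MWCNT D replicate 3 (biphasic, 9.45) and MWCNT C replicate 3 (biphasic, 9.35). Below them were amosite replicate 3 (sarcomatoid, 9.29), MWCNT B replicate 1 (epithelioid, 9.12), amosite replicate 1 (epithelioid, 8.99) and amosite replicate 2 (biphasic, 8.85). MWCNT D replicate 1 (epithelioid, 8.35) and MWCNT D replicate 2 (sarcomatoid, 7.56) were lowest. The order of all 11 did not change with the median in place of the mean, with scaled genes, without dim genes, with the floor, or with the mean of all probe sets of a gene. Quantile normalization and median centring exchanged MWCNT C replicate 3 and amosite replicate 3, which differed by less than 0.1 and have no settled order.

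The single genes followed this order closely. MWCNT C replicate 2 had the highest value of 36 of the 39 genes. The exceptions were Ttk (highest in MWCNT B replicate 2, 10.14), Cdca3 (MWCNT C replicate 1, 11.30) and Incenp (amosite replicate 3, 9.63). MWCNT D replicate 2 had the lowest value of 37 genes, the exceptions being Cdca8 (lowest in MWCNT D replicate 1, 6.40) and Kif15 (amosite replicate 2, 7.38), and MWCNT D replicate 1 was 1 of the lowest 2 for 32 genes. Relative to each gene's own mean over the tumors, the deficit in MWCNT D replicate 2 was widest for Ect2 (-2.69), Prc1 (-2.39) and Cenpf (-2.25) and narrowest for Kif15 (-0.77), Aurka (-0.93) and Incenp (-0.96). MWCNT D replicate 2 is the tumor with pancreatic, T cell and plasma cell RNA, and the part of these tissues in its low signals was not tested. Amosite replicate 1, with the most pancreatic RNA, had a module mean of 8.99, and 17 of 39 genes lay above their tumor mean there.

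**Figure D4:**
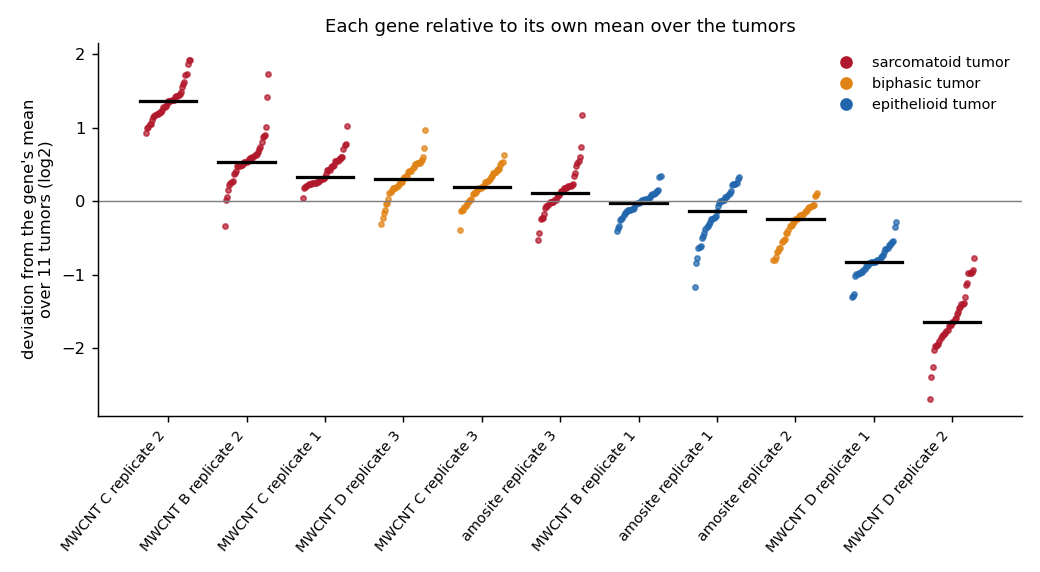
Deviation of each of the 39 genes from its own mean over the 11 tumors (log2), by tumor, ordered by module mean, with the median as a black bar and colour for tumor type. All 39 points of MWCNT C replicate 2 lie above 0, and all those of MWCNT D replicates 1 and 2 lie below it.

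Over the 11 tumors the log2 signal of a gene and the mean of the other 38 had Pearson correlations between 0.788 (Incenp) and 0.983 (Kif20a), with a median of 0.953 and a median Spearman rho of 0.909. All values of a tumor come from 1 array, and the 2 tumors farthest from the median of the module mean, MWCNT D replicate 2 and MWCNT C replicate 2, weigh heavily. Without them the median r was 0.86, and the lowest was that of Melk (0.387, from 0.861). A correlation above 0.8 was found for 38 of the 39 genes, and for 1.99% of the 14178 other genes with the module mean. The SD over the tumors was between 0.551 (Aurka) and 1.05 (Ttk) with a median of 0.797, where the median over all genes was 0.407.

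By tumor type, the module mean was 9.33 ± 1.09 (SD, n = 5) in sarcomatoid, 9.22 ± 0.324 (SD, n = 3) in biphasic and 8.82 ± 0.415 (SD, n = 3) in epithelioid tumors, and the 3 ranges overlapped. None of the 39 genes was called between types by limma. In sarcomatoid against epithelioid tumors (0.76% of probe sets called), 38 of 39 differences were positive, as were 49% of those of all genes. The median of the 39 was 0.52, against a median of -0.01 over all genes, and 0 of the 39 had an unadjusted p below 0.05. The lowest p-values were those of Cdca8 (0.85 ± 0.427, SE, limma adjusted p = 0.421), Kif11 (1.09 ± 0.554, adjusted p = 0.427) and Spc24 (1.03 ± 0.618, adjusted p = 0.51). Without MWCNT D replicate 2, the lowest of the sarcomatoid tumors, the median difference was 0.90, 31 genes had an unadjusted p below 0.05 (16.9% of all probe sets in that fit), and 3 were called higher by limma (0.216% of all probe sets). These were Hmmr (1.41, adjusted p = 0.0289), Racgap1 (1.20, adjusted p = 0.0489) and Cdca3 (1.09, adjusted p = 0.044). Without MWCNT D replicate 2 and amosite replicate 1 together no gene was called, at a median difference of 1.05 and a lowest adjusted p of 0.108. Other choices lowered the median difference, to 0.237 without MWCNT C replicate 2, to 0.287 without MWCNT D replicate 1 and to 0.244 with inducer as a covariate, and the difference of module means (0.51) ranged from 0.213 to 0.952 over the left-out tumors.

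In sarcomatoid against biphasic tumors (0.248% of probe sets called), 27 differences were positive (47.3% of those of all genes) with a median of 0.09, and 0 genes had an unadjusted p below 0.05. Spc24 (0.69, limma adjusted p = 0.803), Hmmr (0.52, adjusted p = 0.849) and Kif15 (0.40, adjusted p = 0.865) had the lowest p-values. In biphasic against epithelioid tumors (0.0% of probe sets called), 37 differences were positive (51.5% of those of all genes) with a median of 0.40, and 0 genes had an unadjusted p below 0.05. Plk1 (0.82, limma adjusted p = 0.954), Cdca8 (0.77, adjusted p = 0.954) and Mad2l1 (0.59, adjusted p = 0.954) had the lowest p-values. The standard errors of single genes ran up to 0.823 between types, so that differences of this size are not shown to be absent.

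By inducer, the module mean was 9.42 ± 0.421 (SD, n = 2) under MWCNT B, 9.81 ± 0.619 (SD, n = 3) under MWCNT C, 8.45 ± 0.951 (SD, n = 3) under MWCNT D and 9.04 ± 0.227 (SD, n = 3) under amosite. In MWCNT against amosite tumors (0.0% of probe sets called) 0 of 39 genes were called by limma and 0 had an unadjusted p below 0.05, with a median difference of 0.15. Kif2c (0.58, limma adjusted p = 0.974), Kif11 (0.64, adjusted p = 0.985) and Cdc20 (0.46, adjusted p = 0.985) had the lowest p-values.

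In MWCNT B and C against MWCNT D tumors (0.00322% of probe sets called, 1 probe set) none of the 39 genes was called by limma. All 39 were higher under MWCNT B and C, as were 49.8% of all genes, with a median log2 difference of 1.20 against -0.002 over all genes. The 39 genes went together over the tumors (median r = 0.953), so that counts of them are not 39 separate results. An unadjusted p below 0.05 was found for 30 of the 39 and for 7.71% of all probe sets. The lowest p-values were those of Bub1b (1.44 ± 0.369, SE, limma adjusted p = 0.581), Spc25 (1.43 ± 0.37, adjusted p = 0.595) and Nusap1 (1.20 ± 0.334, adjusted p = 0.595). Bub1b was at 8.27 and 8.83 under MWCNT B, at 8.46, 9.66 and 8.77 under MWCNT C, and at 7.44, 6.44 and 8.07 under MWCNT D. All 5 tumors of MWCNT B and C lay above all 3 of MWCNT D for 6 genes, Bub1b, Cdc20, Nusap1, Spc25, Racgap1 and Hmmr, as for 2.67% of all genes. Two-sided exact permutation tests gave each of the 6 p = 0.0357, the smallest that 5 against 3 tumors allow, before any adjustment.

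The size of the difference changed with single tumors. The module mean difference was 1.20, 0.756 without MWCNT D replicate 2 and 1.70 without MWCNT D replicate 3. Without MWCNT D replicate 2 the number of genes with an unadjusted p below 0.05 was 9, and without MWCNT D replicate 3 it was 39. Without MWCNT B replicate 2 it was 13, without MWCNT D replicate 1 it was 17, and in a fit of only these groups it was 15. Within tumor types the order of MWCNT D, with 1 tumor in each type, was not the same. MWCNT D replicate 2 was lowest for 39 of 39 genes among the sarcomatoid tumors, and MWCNT D replicate 1 for 35 among the epithelioid ones. MWCNT D replicate 3 was highest for 26 among the biphasic ones, where amosite replicate 2 was lowest for 34. Each count comes from 1 array, and the 39 genes went together over the tumors. MWCNT D replicate 2 is also the tumor with pancreatic, T cell and plasma cell RNA. With tumor type as a covariate, 16 genes had an unadjusted p below 0.05 and none was called. In the fit of all arrays 7.71% of all probe sets had such a p-value. The shares in these other fits are not given here, so that their counts cannot be set against a background.

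Other cell cycle lists differed in how many of their genes were called higher, where 24.5% of all probe sets were and the median over all genes was 0.44. Of 56 other mitosis genes measured, 46 were called higher in tumors against controls, 0 lower and 10 neither, with a median log2 difference of 3.49. Pbk (5.82), Dsn1 of the outer kinetochore (5.25) and Kntc1 (5.19) had the largest differences. With signals below a log2 of 5 raised to 5 these were 3.74, 2.78 and 3.61, and Depdc1 (4.20) and Kifc1 (4.16) had the largest. Condensin and cohesin, the rings that shape and hold chromosomes, had 8 of 12 genes called higher with a median of 1.35, among them the condensin subunits Ncaph (3.69), Ncapg2 (3.63) and Ncapd2 (2.74), while Stag1, Stag2, Smc3 and Ncaph2 were not called. Of 17 genes of the anaphase-promoting complex and its regulators, 4 were called higher and 1 lower (4 of 17, near the share of all probe sets) with a median of 0.37, below that of all genes. Fbxo5, the inhibitor EMI1 (3.13), Fzr1, the G1 activator CDH1 (1.21), and Anapc2 (1.15) were higher, and Anapc16 fell by 1.98. With quantile normalization or median centring 1 of the 17 was called higher, Fbxo5, and 1 lower, and the median was 0.222 or -0.075, so that the direction of this list depends on the scaling.

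Of 21 regulators of the MuvB, E2F and FOXM1 circuits, 9 were called higher and 2 lower with a median of 0.38, below that of all genes. Foxm1, an activator of G2 and M genes, rose by 4.82, from a control mean of 2.45 to a tumor mean of 7.27 (2.27 with signals below a log2 of 5 raised to 5), followed by E2f8 (4.74) and Mybl2, a partner of MuvB (4.25). With the same floor E2f8 differed by 3.04 and Mybl2 by 2.53, and Rbl1 (3.81) and E2f1 (3.49) had the largest differences. E2f6 fell by 2.28 and Tfdp2 fell by 2.02. With median centring 9 were called higher and 6 lower at a median of -0.063. Among 16 G1 cyclins and CDK inhibitors 11 were called higher and 0 lower, led by Cdkn3 (4.67), Ccne1 (4.17) and Ccnd1 (3.82), and Cdkn1a (-0.08) and Cdkn1b were not called. With the floor at 5, with quantile normalization or with median centring 8 of the 16 were called higher. With the floor these 3 genes differed by 4.65, 2.79 and 3.82. All 28 measured chromosomal replication genes were called higher with a median of 2.66. The largest differences were those of Orc1 (5.98), Mcm3 (5.13) and Mcm6 (4.77), but the control mean of Orc1 was 0.75, at the bottom of the scale, and with the floor at 5 they were 1.73, 4.45 and 4.77. With quantile normalization or median centring 26 of the 28 were called higher.

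The mean of the replication genes went with the module mean over the tumors (Pearson r = 0.916, and 0.894 without the 2 tumors farthest from the median). The module mean minus the replication mean was -0.930 in MWCNT D replicate 2 and between -0.199 and 0.469 in the other 10 tumors. In the controls this difference was between -1.47 and -1.09.

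**Figure D5:**
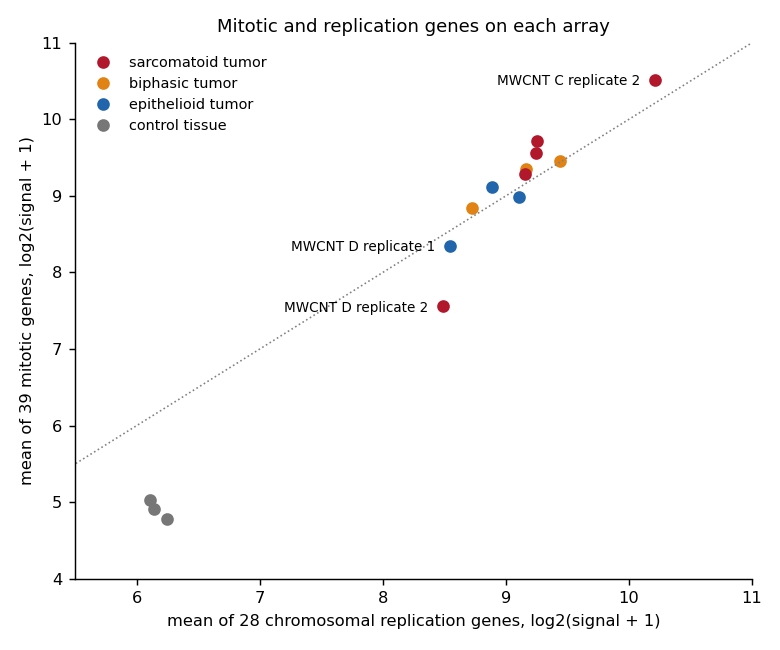
Mean log2(signal + 1) of the 39 mitotic genes against that of 28 chromosomal replication genes on each array, coloured by tumor type, with a dotted line where both are equal. MWCNT C replicate 2 is highest on both axes, and the module mean minus the replication mean is -0.930 in MWCNT D replicate 2.

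Outside the list, among 7276 genes with a mean log2 signal of at least 8, those whose level over the 11 tumors was most like the module mean were Cks2, which binds CDK1 (Pearson r = 0.98), Ndc1, a nuclear pore protein (r = 0.978), Ccne2, cyclin E2 (r = 0.966), Tk1, thymidine kinase (r = 0.963), and Aspm, a spindle pole protein (r = 0.963). Cks2 rose from a control mean of 5.89 to a tumor mean of 11.0, while Ndc1 differed by 0.97 from the controls and stayed under the fold threshold. The genes that ran most against it were Man2b1, a lysosomal mannosidase (r = -0.946), Rab29 (r = -0.94), Trappc5 (r = -0.94), Tbc1d8 (r = -0.939) and Slc35c2 (r = -0.912). Without the 2 tumors farthest from the median these 5 had correlations between -0.919 and -0.713. Man2b1 was at 11.2 in MWCNT D replicate 2 and at 10.2 in MWCNT C replicate 2.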

How the data were processed

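RNA of 11 mesotheliomas and 3 control tissues was hybridized to Affymetrix Rat Genome arrays. The authors normalized the arrays with PLIER in the Transcriptome Analysis Console, and the deposited values are linear intensities without detection calls or counts. The number of arrays limits the precision, as do control signals near the bottom of the scale. There were 31099 probe sets, of which 57 Affymetrix controls were removed. A pseudocount of 1 was added before log2, which makes differences of dim genes smaller than without it. This does not make them low estimates. With the floor for dim signals, the differences of Cenpe, Cenpa, Ttk and Orc1 were smaller still, and their size depends on this choice. Gene names came from the platform annotation, checked against RefSeq: 20826 probe sets had 1 gene, 436 several and 9780 none.

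Groups were taken from the labels. limma 3.58.1 in R 4.3.3 was fitted over all 31042 probe sets, in separate models for tumors against controls, for inducers and for tumor types, in 13 comparisons with Benjamini-Hochberg adjustment. In limma MWCNT B and C were weighted equally against MWCNT D, and MWCNT B, C and D equally against amosite. Module means were taken over the tumors of a group, each tumor weighted equally. A call needed an adjusted p below 0.05 and a fold above 2. Exact permutation tests used scipy 1.17.1. The fit was tested on simulated data.

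Every measured gene is given by role. Full statistics were set for Mki67, Top2a, Cdk1, Ccnb1, Aurkb, Plk1, Birc5, the 8 largest differences and genes not called, between tumors for the 3 lowest p-values, and in other lists for the 3 largest rises and up to 3 falls. Espl1, Cdc20 and Bub1 were described further after their values were seen. The members, lists and rules were chosen with earlier results of these data known. Alternatives were quantile normalization, median centring, a filter at a log2 signal of 6, a floor at 5, trend and robust moderation, fits of only the groups compared or of the tumors alone, a replicate block, the other grouping as a covariate, other call rules, the mean of all probe sets, and leaving out arrays. The labels number the arrays of a group as biological replicates.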

Additional observations from a re-analysis of the deposited data

Results flagged for a closer look

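In the 5 sarcomatoid tumors, MWCNT D replicate 2 stood apart from the others at the low end for Cenpf, with a gap to the nearest tumor of 0.78 of the whole range, and for Cdca3, with a gap of 0.746 of the range. The 95% critical value of Dixon's test for 5 samples is 0.71. Of the 39 genes and the module mean, tested at both ends, these 2 passed, and chance passes about 1 group in 20. Cenpf was at 6.96 in that tumor and at 9.78, 10.58, 10.11 and 9.81 in the others, and Cdca3 was at 8.38 against 11.30, 11.21, 10.56 and 10.82.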

How the results depend on the processing

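The 39 genes called in tumors against controls were 39 under a replicate block and when any array was left out, and 38 under quantile normalization, median centring or an adjusted p below 0.001, where Espl1 was lost. Against controls, counts for single inducers and types kept within 38 to 39 over the left-out arrays and within 37 to 39 with the replicate block. More were lost at an adjusted p below 0.001. In MWCNT D tumors these were Hmmr, Cdca8, Spc24, Espl1, Cenpf, Incenp, Bub1 and Prc1, and in epithelioid tumors the same genes without Prc1. With the floor, Espl1, Cenpe and Cenpa were not called in either of these groups. The counts between tumors were 0 under every alternative but 1: in sarcomatoid against epithelioid tumors they ranged from 0 to 3 over the left-out arrays, with 3 without MWCNT D replicate 2. With the replicate block they were 0 in all 5 comparisons. The replicate numbers mark different rats and were taken as names of samples, not as pairs. The deviations of same-numbered arrays had correlations between -0.29 and 0.392 (median 0.0151). Deviations within a group of 2 or 3 arrays sum to 0, so that these values cannot decide whether same-numbered arrays shared a processing step.

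The difference of module means between tumors and controls (4.25) ranged from 4.12 to 4.41 over the left-out arrays and was 3.75 with the floor and 3.81 with median centring, which moves the median difference of all probe sets from 0.34 to -0.103. That of sarcomatoid and biphasic tumors ranged from -0.184 to 0.555 and that of MWCNT and amosite from -0.026 to 0.396, so that neither has a settled sign. The median correlation of a gene with the other genes moved from 0.953 to 0.909 with Spearman's rho and to 0.86 without the 2 tumors farthest from the median; by construction the latter leaves the extremes out. Of 512 values of single named genes under alternatives, 507 stayed on their side of the threshold, and Espl1 lost its call under the 2 scalings. In MWCNT B and C against MWCNT D, exact tests of Bub1b, Spc25 and Nusap1 passed at an unadjusted p below 0.05. The limma calls used adjusted p-values, so that the 2 bars are unlike. Unadjusted limma p-values of the 3 genes were 0.00239, 0.00262 and 0.00412. Without MWCNT D replicate 2 and amosite replicate 1, an alternative chosen after seeing the data for the other gene lists, and with the floor at 5, added likewise, no list's count moved by more than 1.5 times. Under both scalings, also added, the calls among genes of the anaphase-promoting complex went from 5 to 2. The lowest control signals, near the bottom of the scale, limit how well the size of the Cenpe, Cenpa and Ttk differences is known. Other genes whose controls all lay below a log2 of 5 share this limit, among them Kif15, Kif2c, Plk1 and Birc5.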
